A study of Rattus norvegicus with 8 samples.

Results

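The members described here were 10 mature miRNAs of the miR-204, miR-211, miR-34 and miR-449 families, out of 752 miRNAs in a small RNA sequencing table of the rat striatum. They were chosen by name, by a rule that did not use their measured values, though earlier results of these data were known. The choroid plexus family comprised rno-miR-204-5p, rno-miR-204-3p, rno-miR-211-5p and rno-miR-211-3p. The motile cilia family comprised rno-miR-34b-5p, rno-miR-34b-3p, rno-miR-34c-5p, rno-miR-34c-3p and rno-miR-449a-5p, and rno-miR-34a-5p was kept apart. All 10 were in the table, and 9 of them passed the filter on low counts that left 507 miRNAs for testing. The member that did not pass was miR-211-3p.

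The libraries came from 8 male Sprague-Dawley rats with the genotype given as WT, 1 library per rat. The saline group (4 rats) self-administered saline, and the methamphetamine (METH) group (4 rats) self-administered METH, an addictive stimulant, through a catheter in the jugular vein. Both groups had been trained on food to press the lever, carried the catheter, which was flushed with heparin and gentamycin, and were killed under ketamine and xylazine. The study's methods state that rats with a stable lever response were chosen for plasma sampling, so the animals may not represent all rats trained, and the labels give no age.

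MicroRNAs are short RNAs that repress mRNAs, mainly by pairing through the seed, bases 2 to 8 of the mature strand. Each hairpin precursor can release a 5p and a 3p arm. The choroid plexus is the epithelium in the brain ventricles that secretes cerebrospinal fluid, and miR-204 and miR-211 are known for their abundance in it and in the pigment epithelium of the eye. The ventricle walls are lined by ependymal cells, which like the choroid plexus bear cilia. The miR-34b, miR-34c and miR-449 genes are known to act in the making of cells with many motile cilia. The related miR-34a is more widely expressed, and miR-34a and the miR-34b and miR-34c genes are direct targets of the tumour suppressor p53.

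The mature sequences are printed because shared seeds and near-identical strands decide which members can be told apart. They were taken from RefSeq (GRCr8), where all 10 members were matched, and are written 5′ to 3′ with the seed in capitals.
rno-miR-204-5p: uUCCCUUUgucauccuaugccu
rno-miR-211-5p: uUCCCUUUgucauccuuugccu
rno-miR-204-3p: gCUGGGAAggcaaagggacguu
rno-miR-211-3p: gGCAAGGAcagcaaaggggg
rno-miR-34a-5p: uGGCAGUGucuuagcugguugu
rno-miR-34b-5p: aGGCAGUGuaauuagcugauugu
rno-miR-34c-5p: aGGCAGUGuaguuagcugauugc
rno-miR-449a-5p: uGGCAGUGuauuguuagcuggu
rno-miR-34b-3p: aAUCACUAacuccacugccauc
rno-miR-34c-3p: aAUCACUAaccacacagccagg

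The 5p strands of miR-204 and miR-211 shared the seed UCCCUUU and differed by 1 base of 22, A17U, with positions counted from the 5′ end and the miR-204-5p base given first. The seed GGCAGUG was shared by miR-34a-5p, miR-34b-5p, miR-34c-5p and miR-449a-5p, and outside the members by miR-449c-5p, among the 685 table names that had a RefSeq sequence. The 5p strands of miR-34b and miR-34c differed at 2 of 23 bases, A11G and U23C. Their 3p strands shared the seed AUCACUA and differed at 5 of 22 bases. On GRCr8, Mir204 lies within Trpm3 and Mir211 within Trpm1, both on chromosome 1 and on the strand of the host gene, and both hosts encode TRP-family cation channels. Mir34b and Mir34c are neighbours on the minus strand of chromosome 8. Mir34c lies within Hoatz, a gene linked to cilia and flagella, and Mir34b overlaps it in part. Mir449a neighbours Mir449c on chromosome 2, and Mir34a lies on chromosome 5. Positions on rn6, the assembly used for alignment, were not analysed here.

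Library totals ranged from 12929302 counts in METH rat 1 to 27632443 in saline rat 3. The library of METH rat 4 stood apart from the rest. It held the highest level of the 8 libraries for 30.4% of the 507 tested miRNAs and the lowest for 34.7%, whereas each other library was highest for 6.71 to 13.0% and lowest for 6.11 to 14.2%. Its scaling factor, by trimmed mean of M-values (TMM), was 0.766, the lowest of 0.766 to 1.15. The fitted changes, the differences in ratios and the relations between members are therefore also given without this rat. Levels are in CPM, that is, counts for each 1000000 counts of TMM-adjusted library size. The mature strands are of similar length (20 to 23 bases), but how well a strand is recovered in a small RNA library can depend on its sequence, so levels of different strands are compared only as counts in these libraries. In bulk tissue, fewer cells of a type and less RNA per cell cannot be told apart.

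First, the choroid plexus family was examined. The level of miR-204-5p was 3463, 2680, 2901 and 2910 CPM in saline rats 1 to 4 and 2761, 2819, 2799 and 6901 CPM in METH rats 1 to 4. METH rats 1 to 3 lay within the saline range, and METH rat 4 lay above every other rat. The group means were 2989 ± 334 CPM (SD, n = 4) for saline and 3820 ± 2054 CPM (SD, n = 4) for METH. METH over saline, the log2 fold change was 0.35 ± 0.32 (SE; adjusted p = 0.868, edgeR quasi-likelihood test). Without METH rat 4 it was -0.095. With library totals in place of TMM, METH rat 4 was at 5287 CPM against 2683 to 3688 CPM in the other rats.

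The other arm, miR-204-3p, was far less abundant. Its counts were 371, 512, 354 and 265 in saline rats 1 to 4 and 40, 275, 363 and 293 in METH rats 1 to 4. Here METH rat 1, not METH rat 4, was set apart, at 2.75 CPM against 10.4 to 22.0 CPM in the other 7 rats. The log2 fold change was -0.34 ± 0.49 (SE, edgeR adjusted p = 0.939), and it was -0.010 without METH rat 1 and -0.55 without METH rat 4.

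The related miR-211-5p showed the largest fitted fold change among the members tested. Its counts were 240, 144, 209 and 178 in the saline rats and 111, 154, 212 and 877 in the METH rats. On the CPM scale, METH rats 1 to 3 were at 7.62, 7.75 and 8.55, inside the saline range of 6.18 to 10.8, and METH rat 4 was at 52.7. Saline rats averaged 7.88 ± 2.01 CPM (SD, n = 4), while METH rats averaged 19.1 ± 22.3 CPM (SD, n = 4). The log2 fold change of 1.28 ± 0.64 (SE; edgeR adjusted p = 0.818) became 0.017 when METH rat 4 was left out. The other arm, miR-211-3p, had 2 counts in saline rat 1, 1 in METH rat 1, 4 in METH rat 4 and 0 in the remaining 5 libraries. A count of 0 allows up to 3 counts, or 0.109 to 0.151 CPM in those libraries, and such limits cover counting error only.

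**Figure D1:**
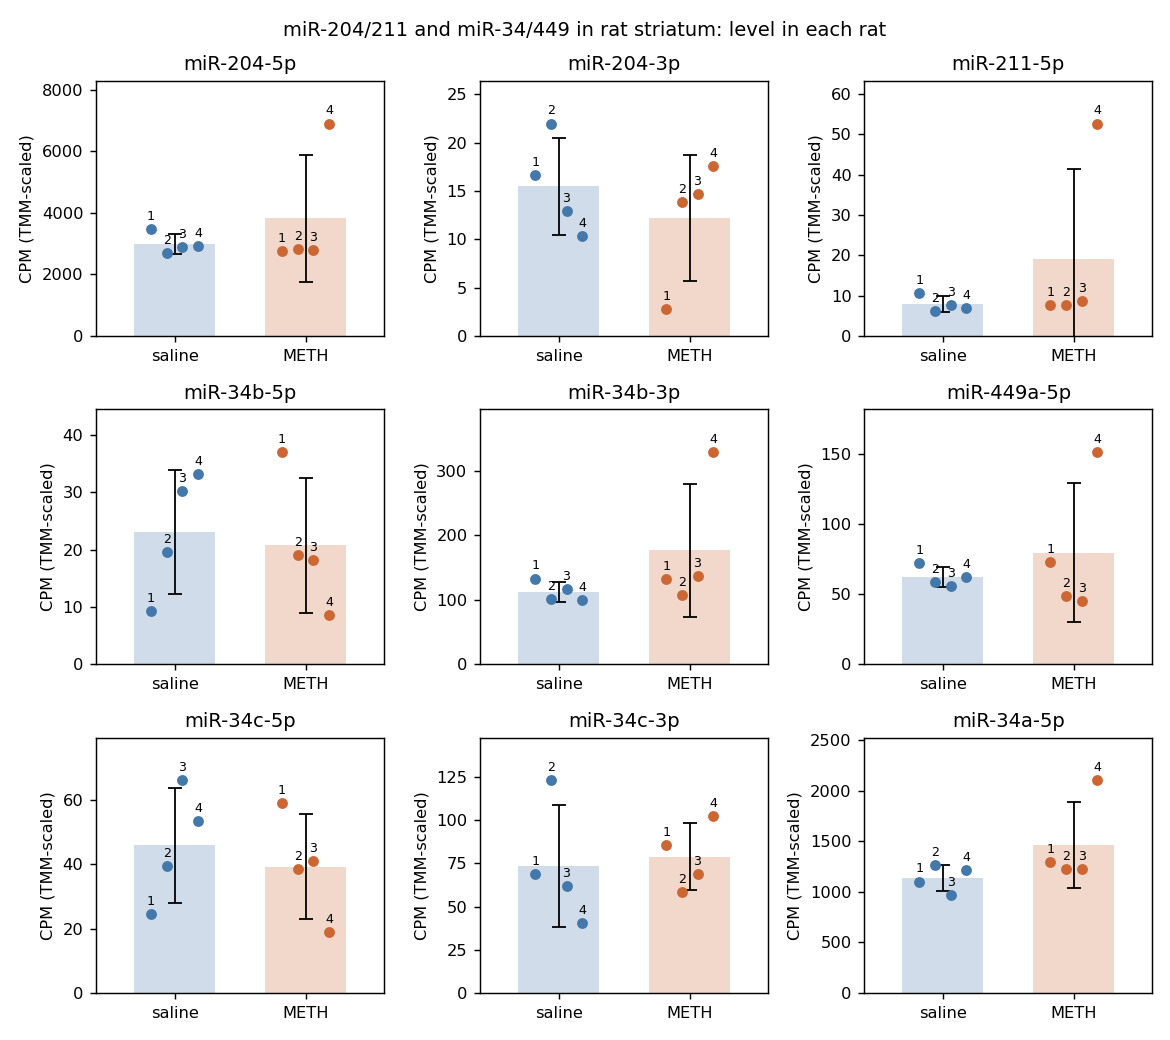
Level of each tested member in CPM (TMM-scaled) on a linear axis from 0, with 1 point per rat numbered 1 to 4, bars at the group mean and error bars of 1 SD (n = 4 rats; the bar of miR-211-5p in METH extends below 0 and is clipped). METH rat 4 is the highest rat for miR-204-5p, miR-211-5p, miR-34b-3p, miR-449a-5p and miR-34a-5p and the lowest for miR-34b-5p and miR-34c-5p.

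Next, the motile cilia family was examined. Of its 5 members, miR-34b-3p was the most abundant, at 133, 101, 117 and 99.8 CPM in the saline rats and 132, 107, 137 and 329 CPM in the METH rats. METH rats 1 to 3 overlapped the saline rats, and METH rat 4 was again above all others. The log2 fold change was 0.65 ± 0.36 (SE, edgeR adjusted p = 0.818), and 0.16 without METH rat 4. The level of miR-449a-5p was 72.5, 58.8, 55.9 and 62.7 CPM in the saline rats and 73.2, 48.9, 45.2 and 152 CPM in the METH rats. Its log2 fold change of 0.35 ± 0.38 (SE, edgeR adjusted p = 0.907) turned to -0.16 without METH rat 4. The same rat therefore set the sign of the fitted change for miR-449a-5p as it did for miR-204-5p.

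The 5p arms of miR-34b and miR-34c went the other way in METH rat 4. For miR-34b-5p, the saline rats were at 9.28, 19.7, 30.3 and 33.1 CPM and the METH rats at 37.0, 19.0, 18.2 and 8.65 CPM. For miR-34c-5p, the saline rats were at 24.5, 39.6, 66.0 and 53.4 CPM and the METH rats at 58.9, 38.3, 40.9 and 18.9 CPM. In both, METH rat 4 was the lowest rat and saline rat 1 the next lowest, and the groups overlapped across nearly their whole range. Log2 fold changes were -0.16 ± 0.49 (SE, edgeR adjusted p = 0.978) and -0.22 ± 0.40 (SE, edgeR adjusted p = 0.959). The sign of both turned without METH rat 4, to 0.11 and 0.017.

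The 3p arm of miR-34c was at 68.8, 123, 61.8 and 40.3 CPM in the saline rats and 85.7, 58.6, 68.7 and 103 CPM in the METH rats. Here saline rat 2 was the highest rat and METH rat 4 the second, so that the strand did not follow miR-34b-3p, with which it shares its seed. Its log2 fold change was 0.10 ± 0.35 (SE, edgeR adjusted p = 0.978). It was -0.073 with library totals, where the median over all tested miRNAs was -0.12, and it was 0.51 without saline rat 2 and -0.029 without METH rat 4.

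Finally, miR-34a-5p was at 1102, 1261, 972 and 1214 CPM in the saline rats and 1297, 1223, 1230 and 2102 CPM in the METH rats. METH rat 4 was 1.68 times the mean of the other METH rats, a smaller step than for miR-204-5p (2.47 times), miR-34b-3p (2.62 times), miR-449a-5p (2.72 times) or miR-211-5p (6.60 times). The log2 fold change was 0.36 ± 0.23 (SE, edgeR adjusted p = 0.818), and 0.14 without METH rat 4. With library totals, the miR-34a-5p level of METH rat 4 was no longer far from those of METH rats 1 to 3.

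Ordered by mean CPM in these libraries, the members were miR-204-5p, miR-34a-5p, miR-34b-3p, miR-34c-3p, miR-449a-5p, miR-34c-5p, miR-34b-5p, miR-204-3p, miR-211-5p and miR-211-3p. The first 3 kept this order in 8 of 8 rats. The order of miR-34c-3p and miR-449a-5p held in 5 of 8 rats, as did that of miR-34b-5p and miR-204-3p, and miR-204-3p lay above miR-211-5p in 6 of 8, so these neighbours were not separated beyond the spread between rats. Among the saline rats, the coefficient of variation was 11.2% for miR-204-5p, 11.3% for miR-34a-5p, 11.6% for miR-449a-5p and 13.7% for miR-34b-3p. It was higher for the remaining members, from 25.5% for miR-211-5p to 47.9% for miR-34c-3p, with 39.0% for miR-34c-5p and 47.1% for miR-34b-5p. The spread of the miR-34b and miR-34c 5p arms was thus already present among the controls.

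The comparison of METH with saline asked whether any member changed with METH self-administration. Of the 9 members tested, 0 passed an adjusted p of 0.05 in the edgeR quasi-likelihood test, where 0 of all 507 miRNAs (0%) passed. At an unadjusted p under 0.05 there were 0 members, against 28 of 507 miRNAs (5.52%). Members called also numbered 0 of 9 with the exact test and with the likelihood ratio test of edgeR, which called 6 and 7 miRNAs in the table as a whole. With DESeq2 they numbered 0 of the 8 members to which it gave a p (it gave none to miR-211-5p), against 8 calls in the whole table. A change of at least 1.5-fold upwards was fitted for 2 members, miR-211-5p and miR-34b-3p (8.28% of all tested miRNAs), and downwards for 0 members (8.48% of all). The log2 fold change of miR-34b-3p was 0.44 with library totals and 0.49 with the rat number as a block, both under 1.5-fold. Groups that did not overlap were found for 0 members and for 3.16% of all miRNAs. Among the 9 members, log2 fold changes had a median of 0.35, with 6 above 0 and 3 below. Over all tested miRNAs it was -0.02, with 47.3% above 0. When METH rat 4 was left out, the members had a median of 0.017, with 5 above 0 and 4 below, and 0 of them changed at least 1.5-fold in either direction. With library totals the median was 0.15, with 5 above 0 and 4 below, beside -0.12 over all tested miRNAs. A p above the threshold does not show that the groups were alike, since the SE of the log2 fold changes ran from 0.23 for miR-34a-5p to 0.64 for miR-211-5p.

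**Figure D2:**
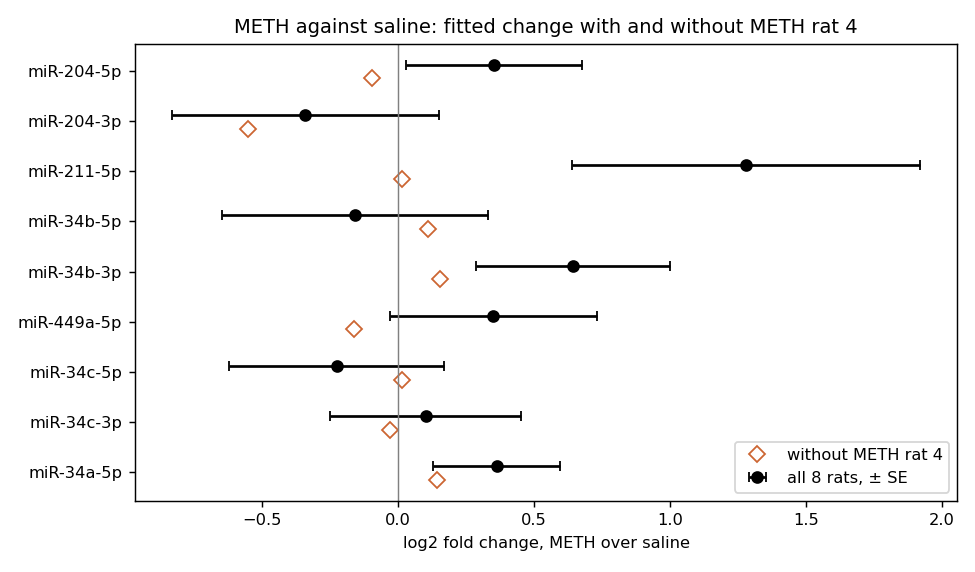
Fitted log2 fold change of METH over saline for each tested member, as filled circles with error bars of 1 SE for all 8 rats, and as open diamonds for the fit without METH rat 4. With all rats the values run from -0.34 to 1.28, and without METH rat 4 the highest is 0.16.

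Ratios of counts within a library need no scaling between libraries, and were used to compare arms and families in each rat. The ratio of miR-34b-5p to miR-34b-3p was 0.0700, 0.194, 0.259 and 0.332 in the saline rats and 0.280, 0.178, 0.133 and 0.0264 in the METH rats. The 3p arm thus had more counts in all rats, by a margin that varied 12.6-fold, or 4.75-fold without METH rat 4. The ratio of miR-34c-5p to miR-34c-3p was 0.356, 0.321, 1.07 and 1.32 in the saline rats and 0.687, 0.654, 0.595 and 0.185 in the METH rats. Which miR-34c arm had more counts therefore differed among the saline rats themselves, and METH rat 4 had the lowest ratio for both precursors.

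For miR-204, the ratio of the 5p to the 3p arm was 208, 122, 224 and 280 in the saline rats and 993, 203, 191 and 392 in the METH rats. METH rat 1 was the highest. The ratio of miR-204-5p to miR-211-5p lay between 321 and 432 in 7 rats and was 131 in METH rat 4, so that its miR-211-5p level was further above the other rats than its miR-204-5p level. The ratio of the leading choroid plexus strand to a ciliary one, miR-204-5p to miR-34c-5p, was 141, 67.7, 43.9 and 54.5 in the saline rats and 46.9, 73.5, 68.4 and 364 in the METH rats. The ratio of miR-34c-5p to miR-449a-5p, which share a seed, was 0.338 to 1.18 in 7 rats and 0.125 in METH rat 4. The ratio of miR-34a-5p to miR-34c-5p was 14.7 to 45.0 in 7 rats and 111 in METH rat 4.

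Between the groups, the log2 differences, METH minus saline, were 0.81 for the miR-204 arms, -0.69 for the miR-34b arms, -0.43 for the miR-34c arms, -0.49 for miR-204-5p over miR-211-5p, -0.42 for miR-34c-5p over miR-449a-5p, 0.57 for miR-34a-5p over miR-34c-5p and 0.48 for miR-204-5p over miR-34c-5p. Unadjusted p-values ran from 0.143 to 0.657 in two-sided exact permutation tests, and each was 0.657 after Benjamini-Hochberg adjustment over the 7. The smallest p that 4 against 4 rats allows is 0.0286, so that a single ratio could not come below 0.2 after adjustment, and these tests cannot show that the ratios were alike. Without METH rat 4 the differences, in the same order, were 0.76, 0.022, 0.022, -0.14, 0.26, 0.071 and -0.16, so that the sign turned for both miR-34 arm ratios, for miR-34c-5p over miR-449a-5p and for miR-204-5p over miR-34c-5p. Without METH rat 1, the difference for the miR-204 arms was 0.31. The arms of miR-211 could not be compared, because miR-211-3p was nearly absent.

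Further ratios were chosen after the values had been seen and are given without a test. Across the 8 rats, miR-204-5p over miR-34b-3p ranged from 20.4 to 29.2, a 1.43-fold range, and miR-204-5p over miR-449a-5p from 37.7 to 61.9, a 1.64-fold range. The ratio of miR-34b-5p to miR-34c-5p ranged from 0.380 to 0.629, a 1.66-fold range. In contrast, miR-34b-3p over miR-34c-3p ranged from 0.824 to 3.20, a 3.89-fold range. METH rat 4 lay inside the range of the other rats for the first 3 of these. The ratio of miR-34a-5p to miR-204-5p also had a narrow range, 1.54-fold, but METH rat 4 was the lowest, at 0.305 against 0.318 to 0.471 in the other rats. Of the ratios given further above, the ranges over the 8 rats were 12.6-fold for the arms of miR-34b, 8.14-fold for those of miR-204, 7.17-fold for those of miR-34c, 9.45-fold for miR-34c-5p over miR-449a-5p and 8.29-fold for miR-204-5p over miR-34c-5p. Over the 7 rats other than METH rat 4 these were 4.75, 8.14, 4.12, 3.50 and 3.22-fold, so that their order depended on this rat. For miR-34a-5p over miR-34c-5p the range was 7.54-fold over the 8 rats and 3.06-fold over the 7. For miR-204-5p over miR-211-5p it was 3.30-fold and 1.35-fold.

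**Figure D3:**
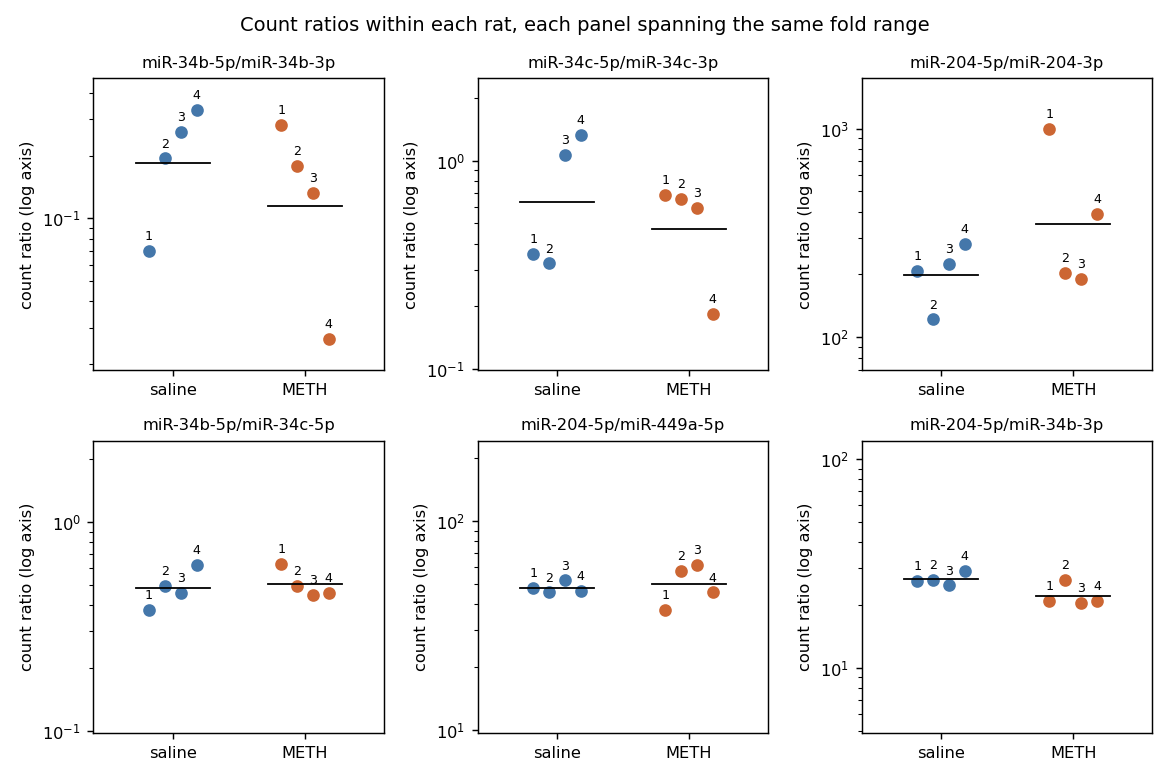
Count ratios within each rat on log axes that span the same fold range in each panel, with 1 point per rat numbered 1 to 4 and a line at the geometric mean of the group. The arm ratios in the upper panels spread widely, from 0.0264 to 0.332 for miR-34b, whereas the ratios in the lower panels, chosen after the values had been seen, stay within a 1.66-fold range.

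Co-variation of the members over the 8 rats was examined in 13 relations of log2 CPM, each with an exact permutation of pairings and adjustment over the 13. The levels of miR-34c-5p and miR-34b-5p moved together (Pearson r = 0.97, p = 0.00109, adjusted p = 0.0142, Spearman rho = 0.86, p = 0.0107, adjusted p = 0.139). Without the 2 rats farthest from the median of miR-34c-5p, saline rat 1 and METH rat 4, r was 0.90. Without METH rat 4 alone r was 0.96, and without saline rat 1 alone it was 0.97, but the adjusted permutation p was then 0.0671 in both cases, so that the relation no longer passed. These strands differ at 2 bases, and how reads that fit both were counted is not given in the sources used here, so their separate values are uncertain.

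The relation of miR-204-5p with miR-211-5p also passed for Pearson's r but not for Spearman's rho in the permutation test (r = 0.99, p = 0.00446, adjusted p = 0.0290, rho = 0.60, p = 0.132, adjusted p = 0.840). It rested on saline rat 1 and METH rat 4, since r was 0.37 without them. It was 0.84 without METH rat 4 alone, where the adjusted permutation p was 0.232. Without saline rat 1 or saline rat 2 alone r was 0.99, but the adjusted permutation p was 0.155 and 0.0894, so that it no longer passed. With library totals, r was 0.96 and the adjusted p was 0.0596 in the permutation test. These strands differ at 1 base, so that the same limit on counting applies.

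Across the families, miR-204-5p and miR-34c-5p gave r = -0.78 (permutation p = 0.0156, adjusted p = 0.0675) and rho = -0.45 (p = 0.267, adjusted p = 0.840). Without METH rat 4 alone r was -0.61, and without saline rat 1 and METH rat 4 it was 0.54, so the negative relation rested on these 2 rats. The relation of miR-34c-5p was -0.70 with miR-34b-3p, -0.40 with its own other arm miR-34c-3p, -0.64 with miR-449a-5p and -0.66 with miR-34a-5p. Without METH rat 4 these were -0.20, -0.18, -0.062 and -0.10. The relation of miR-204-5p was 0.28 with miR-204-3p and 0.83 with miR-34a-5p, and without METH rat 4 these were 0.21 and -0.49. The adjusted permutation p-values of these 6 relations ran from 0.142 to 0.394. The relations with the epithelial miRNAs miR-429 and miR-183-5p lay between -0.39 and 0.43 (between -0.20 and -0.015 without METH rat 4), with adjusted permutation p-values from 0.394 to 0.827.

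**Figure D4:**
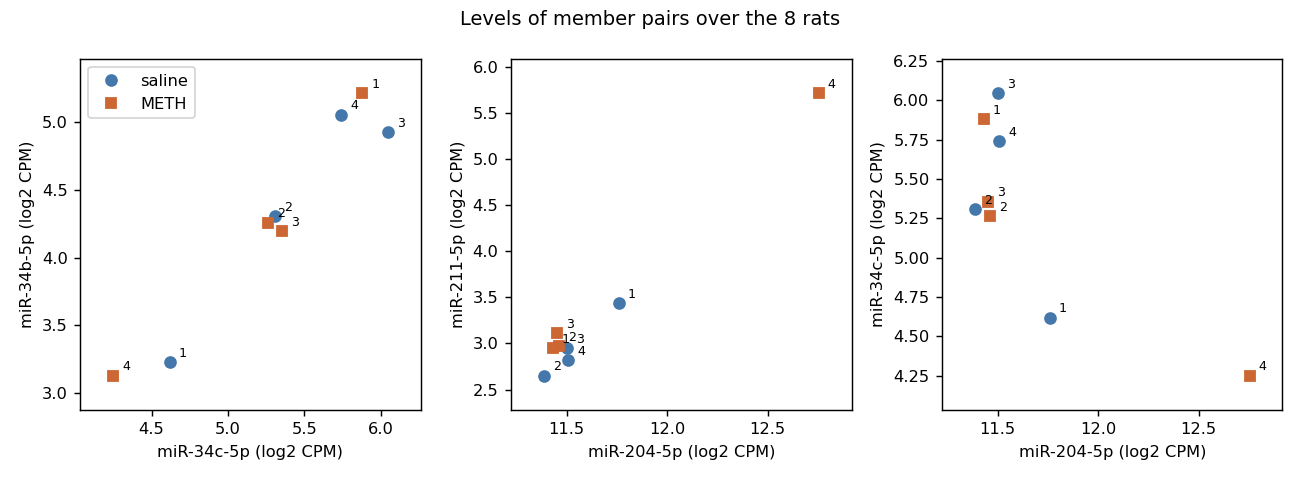
Log2 CPM of 3 pairs of members, with 1 point per rat (circles saline, squares METH) labelled with the rat number. The pair miR-34c-5p and miR-34b-5p spreads along a line over all 8 rats (r = 0.97), whereas in the other 2 panels METH rat 4 lies away from a cluster of the other rats.

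As a description without a p, the tested miRNAs most like miR-204-5p by Pearson r over the 8 libraries were miR-191a-3p (0.997), miR-211-5p (0.991) and miR-494-5p (0.985). Without METH rat 4 these values were 0.976, 0.838 and 0.818. Those most like miR-34c-5p were miR-544-3p (0.970), miR-34b-5p (0.969) and miR-666-3p (0.963), and without METH rat 4 they were 0.947, 0.960 and 0.928. All points of these relations share the library and its scaling.

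Because METH rat 4 carried most of the differences above, its levels were set against the median of the other 7 rats. On the log2 scale, miR-211-5p was 2.77 above that median, miR-34b-3p 1.49, miR-449a-5p 1.36, miR-204-5p 1.29 and miR-34a-5p 0.78, while miR-34b-5p was at -1.18 and miR-34c-5p at -1.11. With library totals in place of TMM these were 2.35, 1.11, 0.92, 0.88, 0.44, -1.76 and -1.65 in the same order. For these members the directions held while the sizes moved. For miR-204-3p the direction turned, from 0.34 with TMM to -0.056 with library totals, and miR-34c-3p fell from 0.58 to 0.25. With TMM, this deviation over all 507 tested miRNAs had a median of -0.16, a 5th percentile of -1.94 and a 95th percentile of 1.61. Of the members, miR-211-5p alone lay outside these percentiles, at percentile 99.4. In the arms, the log2 ratio of 5p to 3p in METH rat 4 deviated from the median of the other rats by -2.87 for miR-34b and -1.82 for miR-34c. Among 174 precursors with both arms tested, these lay at percentiles 1.72 and 8.62. For miR-34a the deviation was 2.21, at percentile 87.9, and for miR-204 it was 0.91, at percentile 65.5. Over all 174 precursors the median was 0.40, the 5th percentile -2.17 and the 95th percentile 2.84. Of these precursors of members, miR-34b alone lay outside these percentiles. The miR-34a-3p arm had 4 counts in METH rat 4 against 7 to 31 in the other rats. For both miR-34a and miR-34b, the arm with more counts in every rat was the one above the other rats in METH rat 4.

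**Figure D5:**
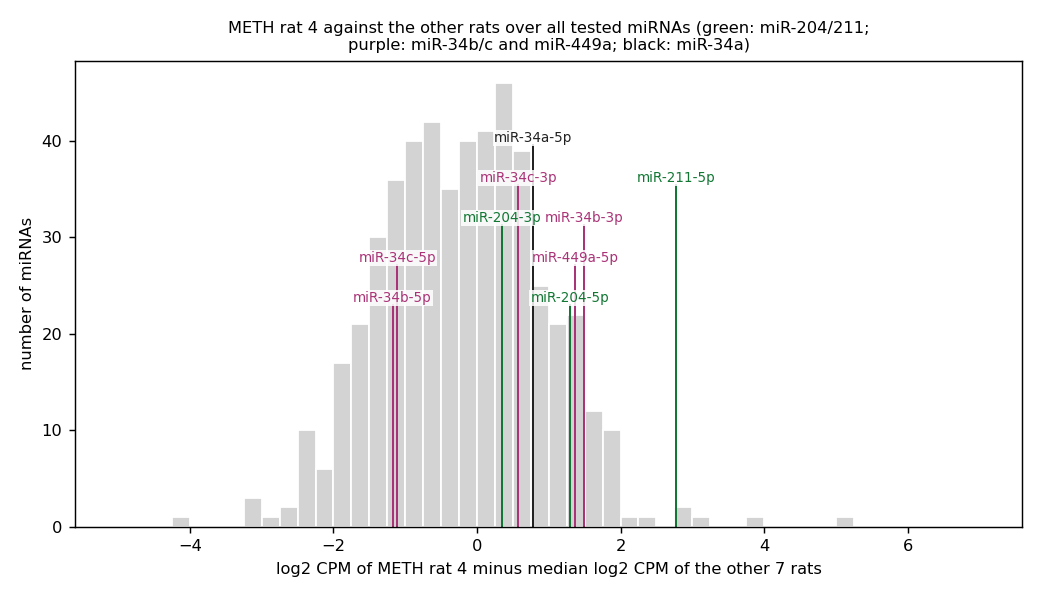
Histogram of the deviation of METH rat 4 from the median of the other 7 rats, in log2 CPM, over all 507 tested miRNAs, with vertical lines at the 9 tested members. The line heights carry no value, and the members run from -1.18 for miR-34b-5p to 2.77 for miR-211-5p.

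Markers of other cell types were read beside these levels. The summed level of the choroid plexus family was 2708 to 3491 CPM in the saline rats and 2771 to 2841 CPM in METH rats 1 to 3, against 6971 CPM in METH rat 4. That of the motile cilia family was 289 to 343 CPM, 272 to 387 CPM and 610 CPM in the same order. Most of the choroid plexus sum was miR-204-5p, at 6901 CPM in METH rat 4. Within the motile cilia family, miR-34b-5p and miR-34c-5p were lowest in this rat. In METH rat 4 the erythrocyte list, led by miR-451-5p, was at 2816 CPM against 341 to 648 CPM in the other rats, with 2 of 4 names tested. The other epithelial list was at 847 CPM against 350 to 514 CPM, and its leading member miR-375-3p at 731 CPM against 129 to 285 CPM, whereas the rest of that list was at 117 CPM in METH rat 4, below the 186 to 344 CPM of the other rats. METH rat 4 also had the highest sum of the oligodendrocyte list, at 4492 CPM against 2334 to 4052 CPM, and of the vascular list, at 13885 CPM against 10550 to 12100 CPM. It had the lowest sum of the leukocyte and microglia list, at 993 CPM against 1191 to 2265 CPM, and of the list linked to p53, at 5651 CPM against 6717 to 8979 CPM. Without their most abundant member, a setting chosen after the values had been seen, the oligodendrocyte list became the lowest in this rat. The leukocyte and p53 lists became the highest. In the same setting, the choroid plexus family was at 70.3 CPM in METH rat 4 against 10.4 to 28.1 CPM in the other rats. The motile cilia family was at 282 CPM against 165 to 255 CPM. The neuron list without miR-124-3p was also highest there, at 234759 CPM against 125216 to 159322 CPM in the other rats, whereas the whole list was within their range. The miR-200 family was highest in another rat, METH rat 3, at 1587 CPM against 22.6 CPM in METH rat 4, as was the miR-183 cluster, at 763 CPM against 299 CPM. Among the names of these lists that are in the table, 0 were without a count in all libraries. The part of these cells in the levels of the members was not tested, and no protein-coding markers of choroid plexus or ependyma were measured in this table, so the cell type named for each family rests on background knowledge.

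Related products were read from lists. Of 4 other products of the miR-34 and miR-449 genes, miR-34a-3p was tested, with a log2 fold change of -0.06. The level of miR-449a-3p was 0 counts in all libraries, while miR-449c-5p had 0 to 8 counts and miR-449c-3p 0 to 4. Of 8 miRNAs linked to p53 outside miR-34, 6 were tested, with a median log2 fold change of 0.23, 4 above and 2 below 0, and with miR-16-5p, the most abundant, at -0.07. Calls numbered 0 in both lists in the edgeR test. Median log2 fold changes of the remaining lists were 4.30 for the miR-200 family (5 tested), 3.63 for the miR-183 cluster (3), 0.12 for other epithelial (4), -0.02 for neuron (5), -0.17 for oligodendrocyte (3), 0.07 for vascular (5), 0.65 for erythrocyte (2), -0.03 for leukocyte and microglia (6) and -0.01 for hindbrain and spinal cord (4). In each of these lists, 0 miRNAs passed an adjusted p of 0.05 in the edgeR quasi-likelihood test, whereas 5 of 5 miRNAs of the miR-200 family and 3 of 3 of the miR-183 cluster had an unadjusted p under 0.05, all higher in METH.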

How the data were processed

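Striatal small RNA libraries of 8 rats, 4 per group, were analysed. The authors extracted total RNA with TRIzol, collected the small RNA fraction from a gel and used a BGISEQ-500 library kit with unique molecular identifiers (UMIs). Reads were trimmed with Cutadapt (1.18), aligned to rn6 with STAR (2.7.0e) and counted with featureCounts of Subread (1.6.4), per the labels and the study's methods. The deposited values are raw counts per mature miRNA, with no normalization by the authors. The merging of reads by UMI, the annotation release and the rule for reads with several alignments are not given in the sources used here. If reads were not merged, PCR copies are counted more than once.

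Totals ranged from 12929302 to 27632443 counts, and 90 of 752 miRNAs had no count. The counts were filtered with filterByExpr at a minimum count of 10, scaled with TMM and tested with the edgeR (4.0.16) quasi-likelihood test (R 4.3.3). Group was the single term in the model. The SE of a log2 fold change was derived from this test, as its size divided by the square root of the F statistic. P-values were adjusted by Benjamini-Hochberg over 507 miRNAs, with a threshold of 0.05. Log2 CPM used a prior count of 2, and ratios a pseudocount of 0.5. Ratios were compared between groups by exact permutation over the 70 assignments of rats, and correlations were tested by exact permutation of pairings. SciPy (1.17.1) and DESeq2 (1.42.0) were also used.

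Each member was named. Of each list, the most abundant miRNA was named, besides miR-429, miR-183-5p and the 3 tested miRNAs most correlated with miR-204-5p and with miR-34c-5p. Where it is not named above, it was miR-219a-2-3p (oligodendrocyte), miR-126a-3p (vascular), miR-150-5p (leukocyte and microglia) and miR-10a-5p (hindbrain and spinal cord). The further products of the miR-34 and miR-449 genes were named in full after their values had been seen. The members and lists were chosen with earlier results of these data known. Alternatives were other scalings, filters and tests, the rat number as a block, another pseudocount, and leaving out each rat in turn.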

Additional observations from a re-analysis of the deposited data

Results flagged for a closer look

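In each group of 4 rats, the highest and lowest values were set against Dixon's 95% critical value, by the gap to the nearest rat as a share of the whole range (0.83 for 4 rats). Of 32 groups examined, 7 held a rat past it, where chance gives about 1.6, and 6 of the 7 rats were METH rat 4. Over the levels of all 507 tested miRNAs, however, 97 of 1014 groups (9.57%) held a rat past it, beside 4 of the 18 groups of member levels. METH rat 4 was set apart in this way for 46 of 507 miRNAs (9.07%), and for 3 of the 9 members.

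Among the choroid plexus strands, miR-204-5p was at 12.75 log2 CPM in METH rat 4, against 11.43 to 11.46 in the other METH rats, and its gap was 0.977 of the range, or 0.783 with library totals, which no longer passes the critical value. For miR-211-5p the same rat was at 5.72 log2 CPM against 2.95 to 3.11, with a gap of 0.941, or 0.945 with library totals. For miR-204-3p it was METH rat 1 that lay apart, at 1.51 log2 CPM against 3.80 to 4.14, with a gap of 0.870, or 0.973 with library totals. For miR-34a-5p, METH rat 4 was at 11.04 log2 CPM against 10.26 to 10.34, with a gap of 0.892, which shrank to 0.313 with library totals and no longer passes.

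The remaining values were log2 ratios within METH rat 4. The ratio of miR-34c-5p to miR-34c-3p was -2.44, against -0.75 to -0.54 in the other METH rats. That of miR-204-5p to miR-211-5p was 7.03, against 8.35 to 8.50. That of miR-34c-5p to miR-449a-5p was -3.0, against -0.35 to -0.14. The cause of these values was not tested.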

How the results depend on the processing

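The number of members called among those with a p was 0 in each of the 9 other settings and in each of the 8 fits that left out 1 rat. Over all miRNAs, the calls rose from 0 to 8 with DESeq2, 6 with the edgeR exact test and 7 with the edgeR likelihood ratio test. With 1 rat left out they ranged from 0 to 5, the latter without METH rat 1, where 54 miRNAs had an unadjusted p under 0.05. The replicate block, with the rat number as a term, gave 0 calls, and 23 miRNAs had an unadjusted p under 0.05. Same-numbered rats did not deviate together (correlations from -0.36 to -0.15). Such correlations gave no sign of pairing by number, but they cannot show that the rats were unpaired.

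In the 9 other settings, 80 of 81 log2 fold changes of the members had the same sign, and 0 of the 80 with an adjusted p passed the threshold (DESeq2 gave none for miR-211-5p). The exception in sign was miR-34c-3p with library totals, at -0.073. The member median, 0.35, was 0.15 with library totals and 0.19 with the replicate block, under which miR-211-5p was at 0.66. With 1 rat left out, 63 of 72 did so, and adjusted p-values in the edgeR test ran from 0.457 to 0.999. The range was -0.095 to 0.49 for miR-204-5p and -0.16 to 0.50 for miR-449a-5p, with METH rat 4 setting the lowest value of both. The range was -0.59 to 0.11 for miR-34b-5p (positive when saline rat 3 or 4, or METH rat 4, was left out), -0.49 to 0.035 for miR-34c-5p (positive without saline rat 3 or METH rat 4) and -0.12 to 0.51 for miR-34c-3p (negative without saline rat 4 or METH rat 4). The cause was not tested.

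With a pseudocount of 1, the ratio differences kept their sign, while the count of ratios past the threshold says nothing here, since 1 ratio could not reach an adjusted p of 0.05. The relations across rats past an adjusted p of 0.05 numbered 2, and 1 with library totals. With 1 rat left out they numbered 0 to 2, with 0 without saline rat 1 or METH rat 4. Of 117 values of r, 107 kept their sign and side of the threshold. With 1 rat left out, r ranged from -0.49 to 0.89 for miR-204-5p with miR-34a-5p, from -0.18 to 0.74 for miR-204-5p with miR-183-5p and from -0.015 to 0.21 for miR-34c-5p with miR-429. The counts of miR-211-3p and the miR-449c strands were too low to pass the low-count filter.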
